A study of Mus musculus with 15 samples.

Results

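The regions described here carried a called peak of H3K27Ac in islets of mice on a high-fat diet and in no other diet of the study. Peaks of the H3K27Ac lists of RD, HFD and HFD-O304 islets were joined where they overlapped by at least 1 bp on chromosomes 1 to 19, and a region was kept when it held a peak of HFD and none of RD or HFD-O304. This gave 3938 of 25452 joined regions, or 15.5%. The same rule for the other diets gave 3009 regions in HFD-O304 alone and 1085 in RD alone, and 12950 regions held a peak in all 3 diets. The regions were thus selected on the presence or absence of a called H3K27Ac peak, so their peak strength is given below as a description, and nothing is read from the absence of H3K27Ac in RD and HFD-O304.

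Histone marks were mapped by chromatin immunoprecipitation and sequencing (ChIP-seq) in pancreatic islets of CBA mice, an inbred strain, which according to the study's methods were males. They ate standard chow (RD), a high-fat diet (HFD) or that high-fat diet with O304 mixed in (HFD-O304), O304 being an activator of the kinase AMPK. No group carried a transgene or deletion, the labels give no age, and islets were pooled before immunoprecipitation. Each mark and diet had 2 replicates, 12 ChIP samples in all beside 3 input samples, and the authors pooled both replicates of a group for peak calling, so that every diet is represented by 1 list per mark and no difference between diets has a replicate error or a test.

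Acetylation of lysine 27 of histone H3 is laid down by the acetyltransferases p300 and CBP at active promoters and enhancers, and trimethylation of the same residue (H3K27Me3) is laid down by Polycomb repressive complex 2 at silent genes. A single histone tail cannot carry both at that residue, so both marks, where truly present at one place in a tissue, sit on different tails, alleles or cells. Called peaks of both marks at one place do not by themselves show that both are present. In β-cells, enhancers marked by H3K27Ac surround the genes of hormone production and of the transcription factors that keep β-cell identity, such as Pdx1, Mafa and Nkx6-1.

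Kept fragments numbered 83773042 to 95218072 in the H3K27Ac lists and 54166902 to 74870300 in those of H3K27Me3. Fragments dropped as duplicates made up 17.2 to 18.4% for H3K27Ac and 45.7 to 56.9% for H3K27Me3. The deepest H3K27Ac list, that of HFD, also reached the weakest peaks. Its lowest fold enrichment (pileup of fragments over a uniform background) was 2.17, against 2.28 in RD and 2.25 in HFD-O304. At the start sites of 6 β-cell marker genes the HFD list had H3K27Ac at 5, the exception being Iapp. It had none at 4 markers of other endocrine cells, 5 acinar, 4 macrophage or 4 endothelial markers, and had a peak at 1 of 3 ductal markers, Krt7. In whole islets, fewer cells of a type and less of the mark per cell cannot be told apart.

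Stretches of 8 of these regions are printed first, as sequence of the C57BL/6J reference (GRCm38), 5′ to 3′, to show what the acetylated DNA looked like at genes taken up below. The first pair lies upstream of the start sites of Aldh1a3, an enzyme of retinoic acid synthesis used as a marker of failing β-cells, and of Ccna2, the cyclin of S phase, and is given on the strand of the gene. Capitals mark matches to the GC box, GGGCGG on either strand, which Sp1-type factors bind.

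Aldh1a3, chr7:66427518-66427772, minus strand: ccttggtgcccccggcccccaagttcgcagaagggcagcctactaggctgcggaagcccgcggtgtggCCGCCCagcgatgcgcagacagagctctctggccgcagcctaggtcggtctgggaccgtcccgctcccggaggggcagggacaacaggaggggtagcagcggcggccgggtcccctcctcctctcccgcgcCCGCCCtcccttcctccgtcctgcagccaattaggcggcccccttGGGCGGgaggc
Ccna2, chr3:36572151-36572450, minus strand: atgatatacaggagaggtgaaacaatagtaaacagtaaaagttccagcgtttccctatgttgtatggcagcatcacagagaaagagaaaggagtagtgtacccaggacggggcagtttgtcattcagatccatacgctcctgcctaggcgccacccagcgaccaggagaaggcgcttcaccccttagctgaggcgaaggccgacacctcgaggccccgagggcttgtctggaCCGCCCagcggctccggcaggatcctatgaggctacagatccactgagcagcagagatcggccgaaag

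The Aldh1a3 stretch of 255 bases was 72.9% GC and held 3 GC boxes, and the Ccna2 stretch of 300 bases was 55.7% GC and held 1. Over all protein-coding genes, 39.7% of upstream windows of 255 bases and 41.0% of windows of 300 bases held at least 1 GC box. The next group lies away from start sites and has Mnx1, Mafa or Foxa2, 3 transcription factors of β-cells, as the nearest gene. It is shown on the plus strand, and capitals mark CAGATG or its reverse complement, an E-box bound by NeuroD-type factors.

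Mnx1, chr5:29485363-29485662, plus strand: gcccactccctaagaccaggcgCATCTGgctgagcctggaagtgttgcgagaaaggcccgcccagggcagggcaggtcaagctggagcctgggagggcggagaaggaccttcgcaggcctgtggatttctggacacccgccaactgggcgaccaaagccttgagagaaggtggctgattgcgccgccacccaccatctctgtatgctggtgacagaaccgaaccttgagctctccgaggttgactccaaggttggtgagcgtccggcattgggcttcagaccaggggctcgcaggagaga
Mafa, chr15:75763441-75763740, plus strand: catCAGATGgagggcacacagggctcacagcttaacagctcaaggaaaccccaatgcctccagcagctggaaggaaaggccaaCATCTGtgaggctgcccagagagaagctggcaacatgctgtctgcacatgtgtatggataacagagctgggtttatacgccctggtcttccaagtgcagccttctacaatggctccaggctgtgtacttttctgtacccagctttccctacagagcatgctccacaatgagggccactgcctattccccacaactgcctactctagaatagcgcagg
Foxa2, chr2:147993451-147993750, plus strand: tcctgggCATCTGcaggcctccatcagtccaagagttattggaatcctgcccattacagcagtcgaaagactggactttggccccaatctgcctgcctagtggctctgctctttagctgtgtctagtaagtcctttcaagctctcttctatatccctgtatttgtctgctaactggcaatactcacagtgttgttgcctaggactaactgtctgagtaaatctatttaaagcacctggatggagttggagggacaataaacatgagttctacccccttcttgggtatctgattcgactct

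This E-box was present in the central 300 bases of 20.2% of the regions called in HFD alone, 21.3% of HFD-O304 alone, 21.1% of RD alone and 16.6% of all joined regions. Away from promoters it was in 667 of 3273 regions of HFD alone (20.4%) and in 2798 of all 13336 (95% Wilson interval 20.3 to 21.7%), so that the higher share of HFD alone was not seen there. The last group is nearest to Pdx1 and Pax6, both β-cell transcription factors, and within Frmd6, a cytoskeletal FERM-domain protein, whose region was among the strongest away from start sites. Capitals mark the AP-1 site TGANTCA, where N is any base, on either strand.

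Pdx1, chr5:147235441-147235740, plus strand: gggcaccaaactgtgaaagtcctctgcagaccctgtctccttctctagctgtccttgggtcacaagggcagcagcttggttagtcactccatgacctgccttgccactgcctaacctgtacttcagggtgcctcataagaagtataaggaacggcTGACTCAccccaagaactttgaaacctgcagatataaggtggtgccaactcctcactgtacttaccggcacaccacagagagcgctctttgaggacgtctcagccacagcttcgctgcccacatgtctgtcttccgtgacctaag
Pax6, chr2:105737189-105737488, plus strand: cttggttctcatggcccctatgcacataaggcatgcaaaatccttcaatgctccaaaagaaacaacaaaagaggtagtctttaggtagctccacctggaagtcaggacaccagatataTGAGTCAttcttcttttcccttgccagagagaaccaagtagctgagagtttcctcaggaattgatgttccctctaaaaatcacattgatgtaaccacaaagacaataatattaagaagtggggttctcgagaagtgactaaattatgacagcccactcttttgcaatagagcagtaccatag
Frmd6, chr12:70877683-70877968, plus strand: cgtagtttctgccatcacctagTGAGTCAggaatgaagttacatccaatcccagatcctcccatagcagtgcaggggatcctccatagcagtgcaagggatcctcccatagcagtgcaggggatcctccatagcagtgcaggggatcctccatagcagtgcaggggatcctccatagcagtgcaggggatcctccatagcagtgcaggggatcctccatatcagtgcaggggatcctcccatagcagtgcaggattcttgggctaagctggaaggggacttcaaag

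An AP-1 site was present in 7.26% of the central windows of regions called in HFD alone, 7.15% of HFD-O304 alone, 5.35% of RD alone and 5.45% of all joined regions. Away from promoters it was in 7.30% of HFD alone, 7.77% of HFD-O304 alone, 5.49% of RD alone and 6.99% of all regions. Much of the Frmd6 stretch is a short unit repeated in tandem, although none of its bases was repeat-masked. These printed matches are letters in the reference and were not tested as binding sites.

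The H3K27Ac peaks that were present in HFD alone were short and close to the limit of calling. Their median length was 434 bp, from 269 to 4023 bp, and together they covered 2.36 Mb. The median fold was 2.32, most regions lay between 2.18 and 2.70 (the 5th and 95th percentiles), and the maximum was 18.94. The median pileup was 33.2 fragments per base and the median −log10 q was 2.87. Regions that HFD shared with HFD-O304 had a median fold of 2.41 and a median length of 856 bp, and those shared with RD had 2.43 and 622 bp. Within their own lists the regions of RD alone had a median fold of 2.44 and those of HFD-O304 alone 2.39, but folds of different lists have different lower limits. In 37.0% of the regions (35.5 to 38.5) the HFD fold lay under the lowest fold called in RD, and in 28.7% (27.3 to 30.1) under the lowest called in HFD-O304. Intervals in parentheses are 95% Wilson intervals over regions. Counting error is all that they cover, with each region taken as independent.

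Only 245 regions, or 6.22%, reached a −log10 q of 5, and 45 (1.14%) reached a fold of 3. The weakest regions inside the class stood at a fold of 2.17 with −log10 q at 2.06. One of them, chr1:36785065-36785357 near Zap70, a T cell kinase, ended 0.162 kb from an HFD-O304 peak. Regions just outside the class were kept out by RD peaks of fold 2.28 and −log10 q 2.09. They lay at Fbxo47 (HFD fold 2.51), in an intron of Mthfd1 (2.41) and between genes nearest to Gadd45g (2.32). HFD peaks of like strength therefore stood on both sides of the rule.

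**Figure D1:**
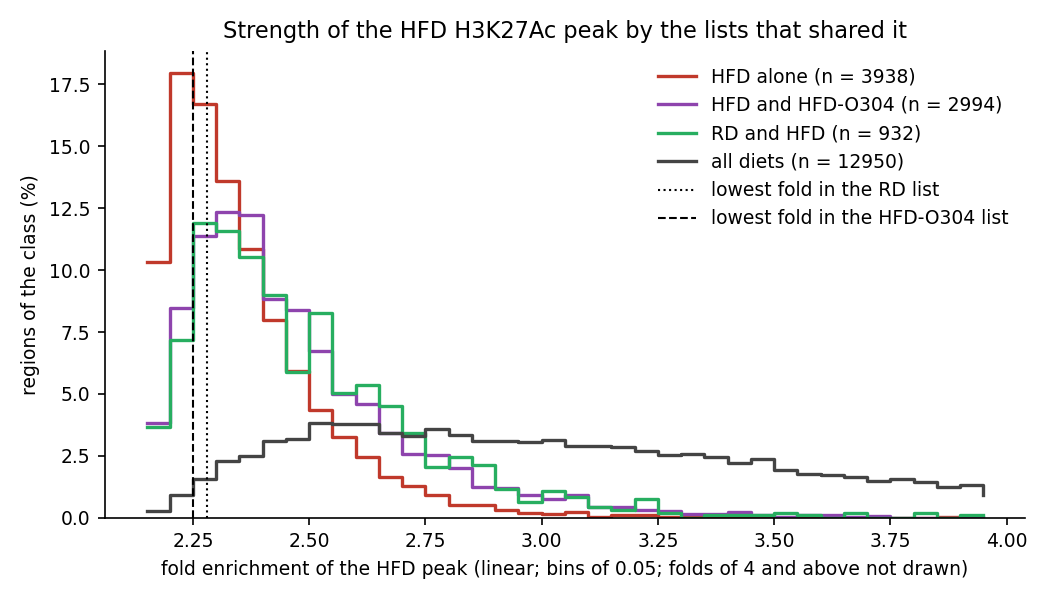
Percentage of the regions of each class (y axis) by the fold enrichment of their HFD H3K27Ac peak (x axis, linear, bins of 0.05), for regions called in HFD alone, in HFD and 1 other diet, and in all diets. The dashed and dotted lines are the lowest folds in the HFD-O304 and RD lists, 2.25 and 2.28. The curve of HFD alone peaks beside these lines and has little above 2.70, while the regions of all diets spread over the whole axis.

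The number of regions followed the cutoffs. With only peaks at or above a fold of 2.28 in every list, 2556 regions were left in HFD alone, against 3236 in HFD-O304 alone. When each list was cut to its 15847 strongest peaks, the size of the RD list, the classes were near one another in size, with 1819 regions in HFD alone, 1892 in HFD-O304 alone and 1949 in RD alone. With a −log10 q of at least 5 in every list HFD alone was again the largest class, at 1551 regions against 994 in HFD-O304 alone and 417 in RD alone. That limit for the HFD peak only, with absence judged against all peaks, left 245. The order of the class sizes thus differed between cutoffs.

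Most of the regions were distal. At promoters, within 1000 bp of the start of any transcript of a protein-coding gene, lay 665 regions, or 16.9% (15.7 to 18.1), against 47.6% of all joined regions and 71.5% of those present in all diets. Gene bodies held 1639 (41.6%, 40.1 to 43.2), for the most part in introns, and 1634 (41.5%, 40.0 to 43.0) lay between genes. In HFD-O304 alone the corresponding shares were 19.6%, 48.2% and 32.3%, and in RD alone 11.1%, 40.2% and 48.8%. By its midpoint a region fell in a coding exon in 5.84% of cases and in an untranslated region in 4.75%. The nearest start site was a median of 18.0 kb away and lay further than 100 kb in 18.9%. Promoter regions had a slightly higher median fold (2.35) than those in gene bodies (2.29) and between genes (2.33). A −log10 q of 5 was reached by 10.1% of the promoter regions (8.01 to 12.6) and by 3.90% of those in gene bodies (3.07 to 4.96).

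The promoter regions were also of another base composition. Their median GC content was 59.4% and the median ratio of observed to expected CpG was 0.526, against 53.1% and 0.215 in gene bodies and 54.2% and 0.297 between genes. Of the promoter regions, 40.9% (37.2 to 44.7) were CpG-rich, here a GC content of at least 50% with a CpG ratio of at least 0.6, against 15.4% of all regions in HFD alone and 56.0% of the regions of all diets.

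**Figure D2:**
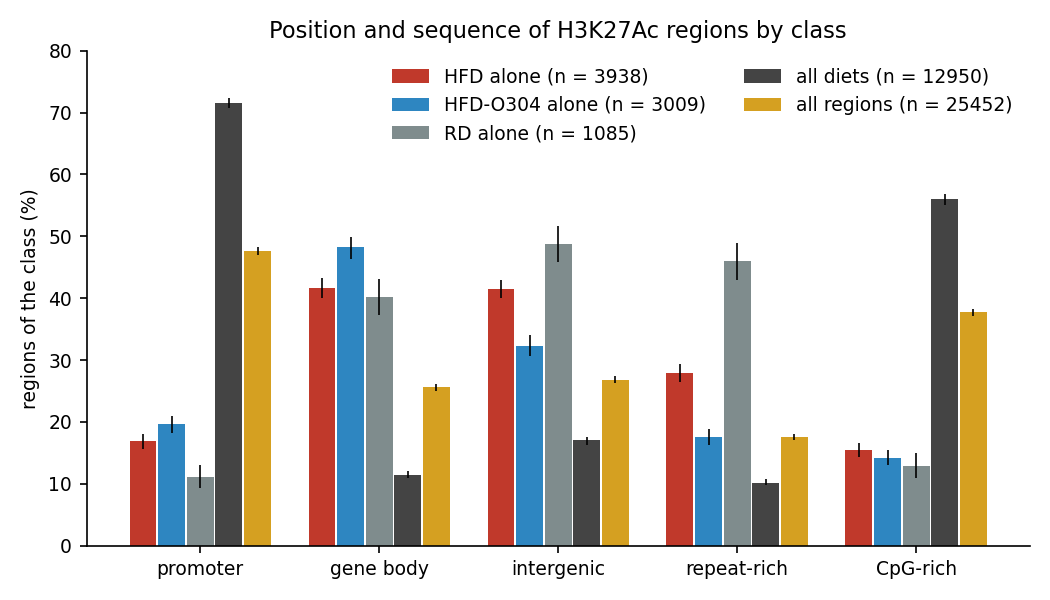
Percentage of regions (y axis) of HFD alone, HFD-O304 alone, RD alone, all diets and all joined regions that lay at a promoter, in a gene body or between genes, that were at least 50% repeat-masked, or that were CpG-rich (x axis). Bars are shares and lines their 95% Wilson intervals. HFD alone stands at 16.9% for promoters, far under the 71.5% of the regions of all diets, and between the other single-diet classes for repeats at 27.9%.

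The rule left out every region that overlapped a peak of another diet, so the distances to such peaks are a description. The nearest H3K27Ac peak of RD or HFD-O304 lay within 1 kb in 4.67% of the regions (4.06 to 5.38) and within 10 kb in 36.7% (35.3 to 38.3). Within 1 kb of a peak of another diet lay 5.42% of HFD-O304 alone and 8.02% of RD alone. The median to the nearest of either diet was 19010 bp, with 30.8 kb to an RD peak and 21.8 kb to an HFD-O304 peak. For regions of HFD-O304 alone the nearest peak of another diet lay a median of 14.9 kb away, and for RD alone 26.8 kb, so that HFD alone lay between them. The regions of HFD alone were scattered singly, with 3460 of them (87.9%) more than 10 kb from any other. Only 2 runs held at least 5. In the first, chr12:19081993-19094745, all 5 joined regions were of HFD alone and all 5 had H3K27Me3 peaks. In the second, chr13:63272767-63294869 at 2010111I01Rik and Fancc, a DNA repair gene, 5 of 6 were of HFD alone and none had H3K27Me3. Across chromosomes the class made up between 13.4% (chromosome 8) and 18.8% (chromosome 12) of the regions.

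At the level of genes, 677 of 20780 protein-coding genes, or 3.26%, had a region of HFD alone at a start site. For 457 of these, 67.5% (63.9 to 70.9), no other H3K27Ac region lay at any of their start sites, so that the peak in HFD was the only acetylated promoter in the lists. The strongest promoter regions with under 50% repeat-masked bases were at Gm13271 (fold 3.36), a predicted gene, Chd1l (3.25), a chromatin remodeller of DNA repair, Nubpl (3.19), an assembly factor of mitochondrial complex I, Mfn1 (3.13), which fuses mitochondria, and Ttc27 (3.07). Gm13271 differed from the other 4 in its H3K27Me3 peaks, called in every diet with folds of 5.79, 7.95 and 6.05 in RD, HFD and HFD-O304. At Chd1l, Nubpl, Mfn1 and Ttc27 no H3K27Me3 was called in any diet, the region covered the start site, and the CpG ratio lay between 0.754 and 0.803.

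Of 9 listed genes of β-cell stress and dedifferentiation, 3 had a region of HFD alone at a promoter (33.3%, 12.1 to 64.6), against 3.26% of all protein-coding genes. By regions assigned to the list, 3 of 9 were of HFD alone (33.3%, 12.1 to 64.6), against 14.1% over all genes. None of the 9 genes was nearest to a region of HFD-O304 alone or RD alone, against 9.88% and 3.60% of all protein-coding genes. A list of 9 genes is too short to tell such an absence from those shares. To a region shared by HFD and HFD-O304, 1 of the 9 was nearest (11.1%, against 10.9% of all genes). At Aldh1a3 the region chr7:66426903-66427772 covered the start site, had its midpoint in a coding exon, and had a fold of 2.39 and a pileup of 34.3. H3K27Me3 was called over it in all diets, with folds of 2.70, 2.91 and 2.74 in RD, HFD and HFD-O304. At Vim, the intermediate filament of mesenchymal cells, the region chr2:13573838-13574917 had a fold of 2.31, and again H3K27Me3 in all diets (2.92, 3.38 and 3.60 in the same order). At Slc5a10, a sugar cotransporter, the fold was 2.20 at a length of 271 bp and no H3K27Me3 was called. None of these promoters held another H3K27Ac region, and the nearest peak of RD was between 17.8 and 38.5 kb away. A second region upstream of Aldh1a3, chr7:66541478-66541869 with a fold of 2.36, lay 113 kb from the nearest start site of any protein-coding gene. All its bases were repeat-masked, and H3K27Me3 was called there with folds of 4.20, 4.12 and 4.69. The study discusses Aldh1a3 on these samples, so that its place in the list is not independent of them.

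Of the cell cycle genes, 2 of 30 (6.67%, against the 3.26% of all genes) had a region of HFD alone at the promoter, Ccna2 (fold 2.40, length 1006 bp) and Mcm6, a subunit of the replicative helicase (fold 2.76, −log10 q 5.67). Neither had another H3K27Ac region at a start site or any H3K27Me3 peak. Their CpG ratios were 0.925 and 0.967. Ccnd1 and Ccnd3, cyclins of G1 phase, and Mcm5, another helicase subunit, were nearest to further regions of HFD alone, which made 5 of 30 listed genes (16.7%, 7.34 to 33.6) against 11.9% of all protein-coding genes (2469 of 20780). By regions assigned to the list this was 5 of 34 (14.7%, 6.45 to 30.1), close to the 14.1% over all genes. All bases of the Mcm5 region were repeat-masked. The Ccnd1 region lay 1.41 kb from the start site (fold 2.26), and an HFD-O304 peak lay 1.57 kb from it.

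Of 21 genes disallowed in β-cells, that is, silenced there but active in most tissues, Cat and Tgm2 had such a promoter region (9.52%, against 3.26%). Cat encodes catalase, and its region of 324 bp had a fold of 2.80. Tgm2, a transglutaminase, had a fold of 2.61. No other H3K27Ac region and no H3K27Me3 peak was found at either. The remaining 19 were nearest to no region of HFD alone, so that 9.52% of the list was, against 11.9% of all protein-coding genes. Of the 21, 5 were nearest to a region of HFD-O304 alone (23.8%, against 9.88% of all protein-coding genes). A promoter region of HFD alone was also found at Nr4a3, an immediate early nuclear receptor (fold 2.44, H3K27Me3 in all diets). Others were at Srebf1, the regulator of lipid synthesis (2.32), and Prkab2, a regulatory subunit of AMPK (2.39). All 3 regions lay within the gene, by the start of an inner transcript and away from the outer 5′ end of the gene. Their midpoints fell in a coding exon at Nr4a3 and Srebf1 and in an intron at Prkab2. These 3 genes had a start site with H3K27Ac in all diets as well. Srebf1 also had a region of HFD-O304 alone at a start site, and an HFD-O304 peak lay 0.119 kb from its region of HFD alone. They were 1 of 23 immediate early genes (4.35%), 1 of 19 of lipid and cholesterol synthesis (5.26%) and 1 of 10 of AMPK and its kinases (10.0%), against 3.26%.

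The β-cell identity factors had regions of HFD alone around them and none at their promoters. Of 15 listed factors, 8 (53.3%, 30.1 to 75.2) were the nearest gene within 100 kb of such a region, against 11.9% of all protein-coding genes. All 15 were also nearest to regions called in all diets. To regions of HFD-O304 alone 6 of them were nearest (40.0%, against 9.88% of all genes), and to regions of RD alone 2 (13.3%, against 3.60%). The 15 factors lie among many acetylated regions, which a share of regions takes into account. Of the 57 joined regions assigned to the 15 factors 9 were of HFD alone, 15.8% (8.54 to 27.4), against 14.1% (13.6 to 14.5) of the regions assigned to any gene.

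The region nearest to Mnx1 lay 6.78 kb from its start site and had a fold of 2.46 and a pileup of 35.3, the highest of the 9. The Pdx1 region, 34.1 kb away, had a fold of 2.38, and the Foxa2 region, 51.4 kb away, had 2.34. Those of Mafa (2.25, in an intron of Zc3h3), Nkx2-2 (2.23, in its own intron), Pax6 (2.18, in an intron of Elp4), Nkx6-1 (2.17) and Glis3 (2.17 and 2.28) lay nearer the limit of 2.17. All 9 were under 50% repeat-masked and none had H3K27Me3 in any diet. 

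Among 31 genes of insulin, glucose sensing and secretion, 8 (25.8%, 13.7 to 43.2) were nearest to a region of HFD alone and 15 (48.4%) to one of HFD-O304 alone. The same shares of all protein-coding genes were 11.9% and 9.88%. The 8 were Iapp, the amyloid peptide of β-cells, Slc2a2, the glucose transporter, the calcium channel genes Cacna1c and Cacna1d, Cpe, a carboxypeptidase that processes insulin, Chga and Ptprn2 of the secretory granule, and Rab27a, which docks granules. The Iapp region lay in an intron of Slco1a5 and was 99.6% repeat-masked. An RD peak lay 1.24 kb and an HFD-O304 peak 1.17 kb from it. Cacna1c had 3 such regions, with folds of 2.41, 2.34 and 2.20. No H3K27Me3 was called at any of the 11 regions of these genes. Of the 108 regions assigned to the list 10.2% (5.78 to 17.3) were of HFD alone, against the 14.1% over all genes.

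AMPK, the kinase that O304 activates, had regions of HFD alone at 3 of 10 listed genes (30.0%, 10.8 to 60.3), against the 11.9% of all protein-coding genes. By regions this was 5 of 24 (20.8%, 9.24 to 40.5), with 14.1% over all genes. Beside the region at an inner start site of Prkab2, Prkag2, a gamma subunit, held 3 in its introns with folds of 2.43, 2.31 and 2.27. Prkaa2, a catalytic subunit, held 1 with a fold of 2.19 which was fully repeat-masked and had H3K27Me3 in all diets. The immediate early genes Junb, Ier2, Ier3, Klf4 and Arc were, with Nr4a3, 6 of 23 (26.1%, 12.5 to 46.5) against that 11.9%, but by regions 6 of 51 (11.8%, 5.51 to 23.4) against 14.1%. Their regions other than that of Nr4a3 had folds between 2.19 and 2.38 and no H3K27Me3.

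Of the 27 genes of the unfolded protein response, Ern1, the stress sensor IRE1, Dnajc3 and Creld2 were nearest to a region of HFD alone (11.1%, 3.85 to 28.1), close to the 11.9% of all genes, and none had one at a promoter. Srebf1 was the only 1 of 19 genes of lipid and cholesterol synthesis (5.26%, 0.935 to 24.6). Of those 19, 6 were nearest to regions of HFD-O304 alone (31.6%, against 9.88% of all genes). In the lists of other cell types, 0 of 9 other endocrine and 0 of 23 macrophage and immune genes were nearest to a region of HFD alone. Only 4 and 5 joined regions of any class were assigned to these lists. The acinar and ductal list had 1 of 21 (4.76%), Bhlha15. The endothelial and stromal list had 4 of 16 (25.0%, 10.2 to 49.5, against 11.9% of all genes), Flt1 and Tek, receptors of vascular growth factors, Vwf, the clotting factor of the vessel wall, and Col4a1, a basement membrane collagen. Their 5 regions were 27.8% (12.5 to 50.9) of the 18 assigned to the list, against 14.1% over all genes, and had folds between 2.22 and 2.43. The Vwf region and the Tek region of fold 2.28 had H3K27Me3 in all diets, and that Tek region was fully repeat-masked. The part of other cells of the islet preparation in these regions was not tested.

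**Figure D3:**
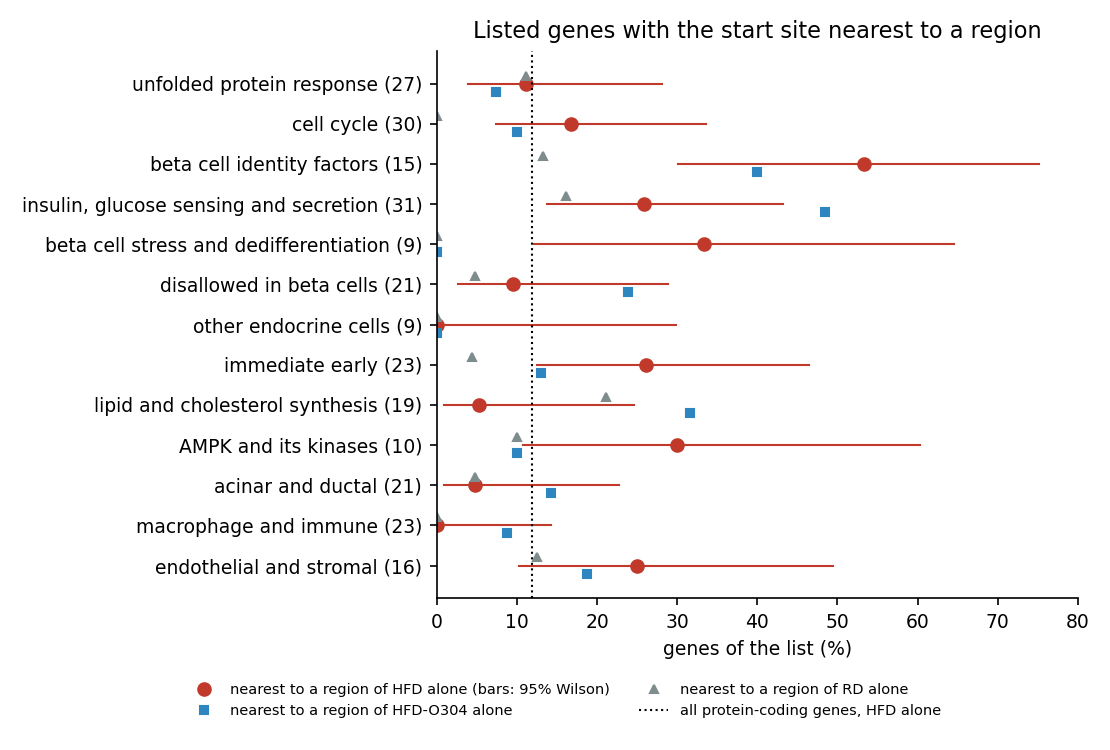
Percentage of the genes of each list (x axis; number of genes on chromosomes 1 to 19 in parentheses) whose start site was the nearest within 100 kb of a region of HFD alone (circles with 95% Wilson intervals), HFD-O304 alone (squares) or RD alone (triangles). The dotted line is the 11.9% of all protein-coding genes for HFD alone. The same shares for HFD-O304 alone and RD alone, 9.88% and 3.60%, are not drawn. β-cell identity factors stand highest at 53.3%, with 40.0% for HFD-O304 alone. By assigned regions they had 15.8% of HFD alone, against 14.1% over all genes. Other endocrine and macrophage genes stand at 0, with only 4 and 5 joined regions assigned.

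By number of regions within the gene and 10 kb around it, Dnah8, a dynein of sperm tails, came first with 15 of HFD alone among 57 joined regions, with folds between 2.17 and 2.72 and H3K27Me3 at 9 of them. It also held 7 regions of HFD-O304 alone and 3 of RD alone. Trhde, a peptidase that degrades thyrotropin-releasing hormone, held 8 of HFD alone and 8 of RD alone among 23. Further genes with 7 each were 2010111I01Rik, a peptidase gene, Fgfr2, Msi2, Ptprn2 and Sp140. In that order the 7 stood among 19, 40, 33, 21 and 13 joined regions. Regions of HFD-O304 alone numbered 6, 8, 9, 7 and 0 in the same genes. Over all joined regions 15.5% were of HFD alone. Among the genes with 7, Msi2, an RNA-binding protein, and Ptprn2 had no H3K27Me3 at any of them. Sp140, a nuclear body protein, had it at all 7 and a length of only 44.7 kb. Gm20388 (11 of 133) and Fgfr2 (7 of 40) are annotated over 4435 and 2961 kb in this release and span many other genes. Their counts therefore do not belong to 1 locus. Over all genes 2622 held at least 1 region and 123 held at least 3.

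Repeats formed a separate group among the regions. At least 50% of the bases were repeat-masked in 1099 regions, 27.9% (26.5 to 29.3), and all bases in 18.7%. The share was 17.6% over all joined regions, 17.5% in HFD-O304 alone and 46.0% in RD alone. Of the repeat-rich regions 73.2% lay between genes and 1.36% at promoters, and conversely 49.3% of the intergenic regions were repeat-rich. The share was higher among stronger peaks, at 42.9% (36.8 to 49.1) of those with a −log10 q of at least 5 and 32.8% (30.5 to 35.2) of those from 3 to 5. The strongest peaks overall belonged here in 4 of 5 cases. Reads that match several copies of a repeat can be placed at any of them, and the part of this in the calls was not tested.

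To see which sequence the repeat-rich regions shared, words of 24 bases were counted in them on either strand. The word held by most of them and the most frequent word in other regions are shown in capitals, each within 150 bases of its strongest region.

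First word, chr7:108705866-108706015, minus strand: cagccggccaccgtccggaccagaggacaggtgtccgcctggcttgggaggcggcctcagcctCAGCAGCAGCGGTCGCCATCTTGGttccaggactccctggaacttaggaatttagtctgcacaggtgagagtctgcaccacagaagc
Second word, chr2:128956985-128957134, plus strand: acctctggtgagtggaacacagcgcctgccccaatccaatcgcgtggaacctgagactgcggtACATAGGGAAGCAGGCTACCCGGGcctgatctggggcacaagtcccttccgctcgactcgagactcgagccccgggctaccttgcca

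The first word was found in 212 of the 1099 repeat-rich regions of HFD alone, 19.3% (17.1 to 21.7), on all 19 chromosomes, and the second in 200, 18.2% (16.0 to 20.6), on 18. Together they were in 412 regions, or 37.5% of the repeat-rich regions and 10.5% of all regions of HFD alone. Both were also found in the other classes. Among repeat-rich regions the first word was found in 14.8% of HFD-O304 alone, 11.8% of RD alone and 17.8% of all diets, and the second in 16.3%, 10.2% and 8.52%. The words were chosen because they were frequent in HFD alone, so that their higher share there is no finding.

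The first word holds the reverse complement of AAGATGGC, a site of the zinc finger factor YY1. In the central 300 bases this site was present in 29.6% (26.9 to 32.3) of the repeat-rich regions of HFD alone and in 1.41% (1.04 to 1.91) of the others. The corresponding shares were 22.0% and 1.65% in HFD-O304 alone, 22.8% and 1.19% in RD alone, and 25.9% and 2.77% in the regions of all diets. Over all joined regions 6.67% held it.

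**Figure D4:**
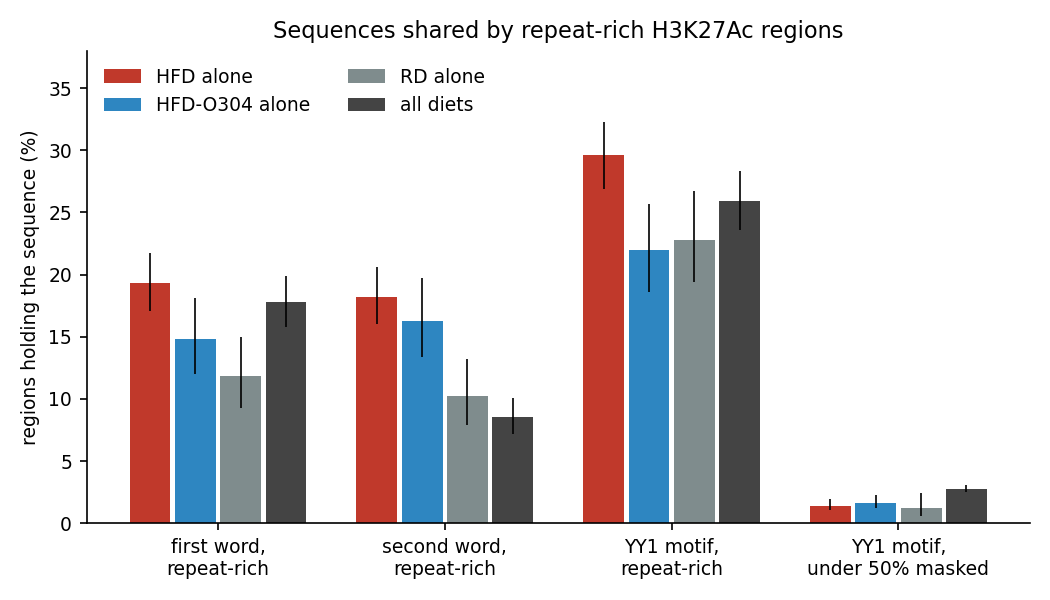
Percentage of regions (y axis) of HFD alone, HFD-O304 alone, RD alone and all diets that held the first or second 24-base word (repeat-rich regions) or the YY1 motif in their central 300 bases, for repeat-rich regions and for those under 50% masked (x axis). Bars are shares with 95% Wilson intervals. The YY1 motif stands between 22.0% and 29.6% in the repeat-rich regions and at no more than 2.77% in the others.

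H3K27Me3, which the rule did not use, was frequent at these regions. The RD list had a peak of it at 29.1% (27.7 to 30.5) of them, the HFD list at 26.5% (25.1 to 27.9) and the HFD-O304 list at 30.3% (28.9 to 31.7). Over all joined regions the shares were 20.0%, 19.3% and 19.7%, over HFD-O304 alone 17.8%, 17.2% and 18.7%, and over RD alone 26.5%, 24.2% and 26.5%. Regions shared by RD and HFD had higher shares than HFD alone, at 38.6%, 36.7% and 36.9%. Those of RD and HFD-O304 had 28.7%, 26.7% and 26.7%, and those of HFD and HFD-O304 22.7%, 22.8% and 23.2%. In any diet 1362 regions of HFD alone (34.6%) had H3K27Me3, and 870 of them (22.1% of the class) had it in every diet. The mirror image of the H3K27Ac rule, H3K27Me3 in both RD and HFD-O304 and none in HFD, was found at 153 regions (3.89%), and the opposite pattern, H3K27Me3 in HFD alone, at 46 (1.17%). Over all joined regions these patterns had shares of 1.72% and 1.43%. The former made up 2.09% (1.64 to 2.67) of HFD-O304 alone and 3.87% (2.88 to 5.19) of RD alone, so that its share in HFD alone was no higher than in RD alone. The other partial patterns in HFD alone had between 42 and 85 regions each. The H3K27Me3 list of HFD was the shallowest at 54166902 fragments and had the highest lowest fold, 2.76, against 2.53 in RD, and the part of depth in these 153 was not tested. Where it was called, the H3K27Me3 fold at the regions had medians of 3.14, 3.33 and 3.43 on RD, HFD and HFD-O304, against 3.27, 3.50 and 3.62 over all joined regions.

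The overlap with H3K27Me3 went with repeats. Of the repeat-rich regions 76.9% (74.3 to 79.3) had H3K27Me3 in any diet, and of the others 18.2% (16.8 to 19.7). All 212 regions with the first word had it, as did 196 of the 200 with the second, and together these words accounted for 408 of the 1362 regions with H3K27Me3, 30.0%. The repeat-rich regions with neither word had it in 53.1% of cases on RD, 45.0% on HFD and 54.6% on HFD-O304. Regions with a word were nearly always under H3K27Me3 in the other classes as well, at 97.4% of the 78 regions of HFD-O304 alone, all 59 of RD alone and 99.2% of the 236 of all diets for the first word. By position, H3K27Me3 was called in any diet at 51.0% (48.6 to 53.4) of the intergenic regions, 30.2% (26.9 to 33.8) of the promoter regions and 20.0% (18.1 to 22.0) of those in gene bodies. In regions under 50% repeat-masked the share with H3K27Me3 in HFD was 12.6% (11.4 to 13.8), with 13.3% in RD and 14.7% in HFD-O304. These lay under the 20.0%, 19.3% and 19.7% in RD, HFD and HFD-O304 over all joined regions, which include repeat-rich ones. The higher share of the whole class was thus not seen outside its repeat-rich regions.

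**Figure D5:**
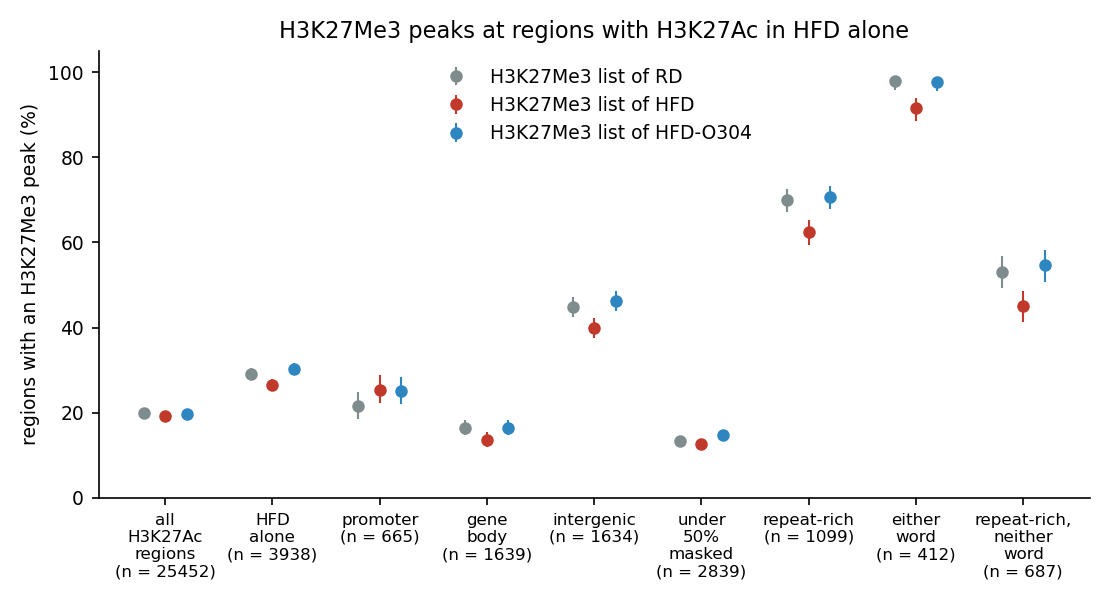
Percentage of regions with an H3K27Me3 peak (y axis) in the RD, HFD and HFD-O304 lists for all joined H3K27Ac regions and for those of HFD alone, the latter also split by position, by repeat content and by the 24-base words (x axis, n in parentheses). Points are shares and lines 95% Wilson intervals. Regions with either word stand at 91.5% or more in every list, and regions under 50% masked at 14.7% or less.

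The 5 strongest peaks each had an H3K27Me3 peak in at least 1 diet, but only 3 of them had it in HFD, the diet of the H3K27Ac peak. The highest of all, chr14:8286647-8286924 between genes and 22.9 kb from Fam107a, an actin-associated stress protein, had an H3K27Ac fold of 18.94 over 278 bp. H3K27Me3 was called on it with folds of 33.22, 30.59 and 34.49 in RD, HFD and HFD-O304. The region in an intron of Dop1b, chr16:93789191-93789529, had an H3K27Ac fold of 14.17 and H3K27Me3 in RD alone, at a fold of 29.99. Next came chr13:25050380-25050662 near Dcdc2a, a ciliary tubulin-binding protein (8.89, with H3K27Me3 folds of 16.32, 11.30 and 13.77), chr13:13981886-13982326 in an intron of B3galnt2, a glycosyltransferase (6.56, with H3K27Me3 in HFD-O304 alone at 10.79), and chr3:92758602-92758900 near Lce1h, a skin barrier gene (5.84, with H3K27Me3 folds of 8.98, 10.55 and 10.57). Their lengths were between 278 and 441 bp. In these 5 the fold of H3K27Me3, wherever called, exceeded that of H3K27Ac, each fold being over the background of its own list. The peaks were called without input, and the part of a background common to both marks at these short regions was not tested.

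Away from promoters and under 50% repeat-masked, the strongest after the Fam107a region were chr7:130834362-130835733 within the annotated span of Fgfr2 and 30.0 kb from Plekha1 (4.65), chr3:63516400-63516671 near Gm34302 (5.13), the intron of Frmd6 printed above (3.91) and an intron of Rabgap1l, a GTPase regulator (3.87). The former pair had H3K27Me3 in every diet, with folds from 7.11 to 13.83. Rabgap1l had it in RD (3.08), and Frmd6 in none, with the nearest H3K27Ac peak of another diet 51.4 kb away. The Frmd6 region holds the unmasked tandem repeat seen in its printed sequence, and the part of this in the call was not tested.

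In the central 300 bases 18 motifs were searched on both strands, and matches of different motifs may overlap. The shares are set beside the base composition, which differed between classes. The median GC content of the windows was 54.3% in HFD alone, 54.0% in HFD-O304 alone, 50.7% in RD alone and 58.7% over all regions. The GC box was present in 19.2% of HFD alone, 16.9% of HFD-O304 alone and 14.6% of RD alone, against 35.3% of all regions. Away from promoters, where the base composition was closer (53.3% GC against 53.0%), the GC box was in 15.5% of HFD alone and 16.7% of all regions, the AP-1 site in 7.30% and 6.99%, the Maf half-site TGCTGAC in 6.05% and 5.53%, and the forkhead site TGTTTAC in 3.27% and 3.41%. The NeuroD-type E-box was there in 20.4% of HFD alone, with 20.3 to 21.7% as the interval over all regions, and in 22.7% of HFD-O304 alone (21.1 to 24.4).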

How the data were processed

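H3K27Ac and H3K27Me3 were measured by ChIP-seq in islets of RD, HFD and HFD-O304 mice, and samples were grouped by mark and diet from their titles. The authors mapped reads to GRCm38 with Bowtie2, merged both replicates per mark and diet and ran MACS 2.1.2 in its broad mode, without input or local background, at a q of 0.01 and with 1 fragment kept per position (file headers). The study's methods also list a looser q option, and the headers were followed because every listed peak passed theirs. STAR and FastQC are also named in the submitters' processing notes. The deposited lists give for each peak the pileup (coverage signal), the fold enrichment (a ratio to the uniform background) and the −log10 of p and q, all computed by the authors, beside the peak length.

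Peaks on chromosomes 1 to 19 were joined, and genes were taken from GENCODE mouse release 21. A region was given the gene of its nearest start site within 100 kb. Soft-masked bases of the C57BL/6J reference gave the repeat content, which can differ in CBA mice. No test between diets was possible, and shares are given with 95% Wilson intervals. The 24-base words were the most frequent in repeat-rich regions of HFD alone, the second sharing under 20% of its regions with the first. Named regions were the 5 with the highest −log10 q overall and the 5 highest at promoters and away from them under 50% masked, the 3 on either side of the rule, those from Aldh1a3 to 150 kb upstream, all genes of the 13 lists with a promoter region, and the 5 genes with the most regions. Other named genes were chosen after their values were seen. The regions and the gene lists were chosen with earlier results of these data known. Listed genes on the sex chromosomes (Sytl4, Serpina7 and Pou3f4) were not counted, and a pair of marker genes, not reported here, was left out of the lists. Joining and overlap were tested on simulated intervals. Python 3.11.15, pandas 2.3.3, pysam 0.24.0 and SciPy 1.17.1 were used. The input samples were not used here. Alternatives of joining, cutoffs, promoter windows and repeat limits were tried.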

Additional observations from a re-analysis of the deposited data

How the results depend on the processing

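The size of the class and the shares describing it depended mainly on the cutoffs, and less on how peaks were joined. Requiring an overlap of 50% of the shorter peak, joining peaks up to 1000 bp apart or adding X and Y left the count within 1.5 times the reported value and the 3 shares within their intervals. With peaks of a fold of at least 2.28 in every list there were 2556 regions, with a promoter share of 18.7%, a repeat-rich share of 31.5% and an H3K27Me3 share in HFD of 30.1%. With that fold asked of the HFD peak only, there were 2481 regions, with 18.6%, 32.0% and 30.5% in the same order. Lists of equal size gave 1819 regions, with 23.4%, 31.6% and 30.9%. A −log10 q of at least 5 in every list gave 1551 regions, with 51.6%, 19.1% and 23.4%, a class that also takes in regions whose weaker peaks in other diets were removed. The same limit for the HFD peak alone gave 245 regions, with 27.3%, 42.9% and 37.6%. Without repeat-rich regions the promoter share was 22.9% and the H3K27Me3 share 12.6%.

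The promoter share was 19.9% with a window of 2000 bp, 11.3% with 1000 bp upstream only, 22.0% with the start sites of all annotated genes and 13.9% with those of protein-coding transcripts only, a choice made after seeing the data. The repeat-rich share was 24.0% at a limit of 80% masked bases. The H3K27Me3 share was 23.5% when 50% of the region had to be covered and 11.4% with H3K27Me3 peaks of a −log10 q of at least 5. Under the 3 cutoffs applied to every list the repeat-rich and H3K27Me3 shares of HFD alone stayed above those of HFD-O304 alone, with 31.6% against 19.2% and 30.9% against 21.4% in lists of equal size. RD alone had a higher repeat-rich share than HFD alone under all 3 (38.8% to 53.5%), and a higher H3K27Me3 share, 24.9% against 23.4%, at a −log10 q of at least 5.

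No paired analysis was possible because each list was called on both replicates of a group together, which also leaves no setting without a replicate. Peaks near the limit of calling depend on depth, which differed between lists, and the absence of a peak does not show that the mark was absent. Gene assignment by the nearest start site is not evidence of regulation.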
